A study of Mus musculus with 7 samples.

Results

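The genes described here make, package and recapture the catecholamines of the adrenal medulla. They were taken by symbol: Th, Ddc, Dbh, Pnmt, Gch1, Slc18a1, Slc18a2 and Slc6a2, which are 8 of the 35976 gene symbols measured. All 8 had reads in every library and passed the filter on low values (mean normalized count of 10 or more). The normalized count is the read count divided by the authors' size factor for the library.

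Whole glands came from the inbred strain C57BL/6J, with no allele or treatment given in the labels, and were pooled by age and, after birth, by sex. A pool of 40 glands of undetermined sex stood for E18.5. At P1 (postnatal day 1) the male pool held 16 glands and the female pool 22. At 2 weeks each pool held 6 glands and at 12 weeks 4. E18.5 is late gestation. Each of the 7 libraries was 1 pool, so no group had a replicate, and age differences were tested over the 6 postnatal libraries with sex as a term. The spread in those tests starts from how far the difference between the male and the female pool varied from age to age. It was then moderated toward the spread of other genes of similar level, so it is not each gene's own alone.

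The glands were sequenced whole, so the medulla, where chromaffin cells make catecholamines, was measured together with the surrounding cortex. Tyrosine hydroxylase (Th) makes L-DOPA from tyrosine, aromatic L-amino acid decarboxylase (Ddc) turns it into dopamine, dopamine beta-hydroxylase (Dbh) makes noradrenaline inside the vesicle, and phenylethanolamine N-methyltransferase (Pnmt) converts noradrenaline to adrenaline. GTP cyclohydrolase (Gch1) starts the synthesis of tetrahydrobiopterin, the cofactor of tyrosine hydroxylase. The vesicular monoamine transporters Slc18a1 (VMAT1) and Slc18a2 (VMAT2) load the vesicles, and the noradrenaline transporter Slc6a2 takes noradrenaline back up from outside the cell. Adrenal Pnmt is known to depend on glucocorticoids from the cortex, and noradrenergic chromaffin cells lack it.

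Depth was 15184210 to 23551289 reads in genes per library. The library labelled P1 female held Y-linked transcripts, at 21.0% (median of 4 genes) of what the P1 male library held, against 0.0609% at 2 weeks and 0.0132% at 12 weeks. It also held more skeletal muscle RNA than P1 male (summed level of 6 markers 139272 against 76444 normalized counts), and P1 male held pancreatic RNA (2847 over 6 exocrine pancreas markers, against 38.6 in P1 female). The 2-week female library held more RNA of other tissues than 2-week male, with 4846 against 139 over 6 muscle markers, 1639 against 14.2 over 5 neutrophil markers, 23519 against 8099 over 5 erythroid markers and 24834 against 9669 over 6 liver markers. The liver sum was 188587 to 302533 at E18.5 and P1 and 221 to 330 at 12 weeks. The part of these tissues in the results was not tested. Chromaffin cells were present in every library: all 9 non-member chromaffin markers (among them Chga, Chgb, Scg2 and Syt1) had reads in all 7. Their summed level ran from 37424 at E18.5 to 128879 in 2-week male, most of it from Chga, Chgb and Scg2. Their mean log2 level was 10.05 at E18.5, 10.82 in 2-week male and highest in P1 female (10.87). Phox2a and Gata3 were lower in 2-week male (91.6 and 193) than at E18.5 (132 and 267), and the other markers were higher. In bulk tissue, fewer cells of a type and less RNA per cell cannot be told apart.

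Per kilobase of exon, the 4 enzymes that act on tyrosine and its products stood above the transporters and Gch1. Averaged over the 7 libraries, Dbh had 3677 normalized counts per kilobase, Th 2577, Pnmt 2074 and Ddc 653, against 312 for Slc18a1, 309 for Gch1, 282 for Slc6a2 and 228 for Slc18a2. Dbh ranked first in all 7 libraries. Pnmt was at rank 2 in both 2-week libraries, at rank 4 in 12-week male and at rank 3 in the other 4. Slc6a2 was at rank 5 up to 2 weeks and at rank 8, the last, in both 12-week libraries. Exon lengths were those of GENCODE M21 and not of the authors' annotation, which is not given in the sources used here.

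**Figure D1:**
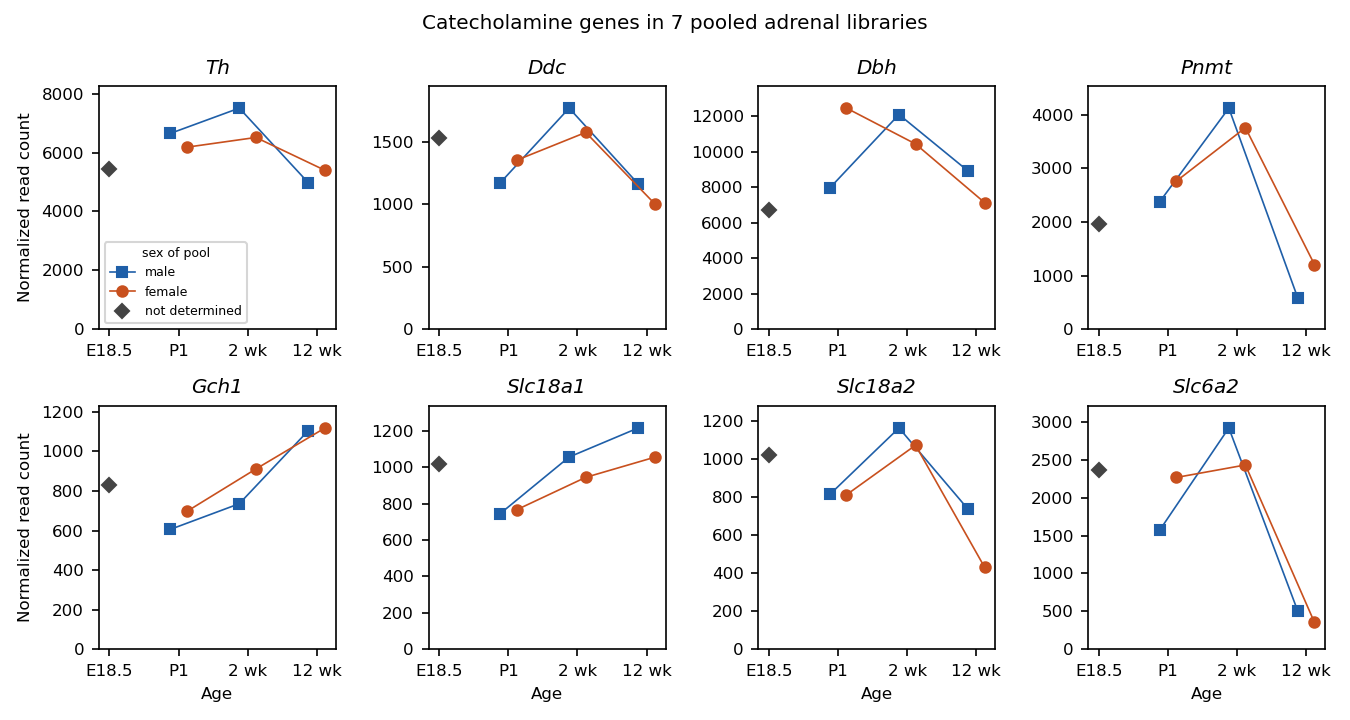
Normalized read count (y axis, from 0) of the 8 genes against age, with 1 point per pooled library (blue squares male, orange circles female, grey diamonds E18.5 with sex not determined). Pnmt and Slc6a2 drop to their lowest values in both 12-week libraries, whereas Gch1 is highest there and Slc18a1 has its highest value in 12-week male.

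Th varied least of the 8 genes, and no age comparison of it passed. Th, the rate-limiting enzyme, lies on chromosome 7 (142892752 to 142931128, minus strand, GRCm38, GENCODE M21). For Th, normalized counts were 5430 before birth (E18.5), 6647 (male) and 6180 (female) at P1, 7507 and 6511 at 2 weeks, and 4970 and 5396 at 12 weeks, males first. Its highest value was 1.51 times its lowest. The 2-week libraries stood above the 12-week libraries without overlap, as for 35.3% of all genes tested. The log2 difference of -0.43 ± 0.15 (SE) did not pass (limma adjusted p = 0.109). Scaling libraries to equal totals gave -0.60 and an adjusted p of 0.0433.

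Dbh lies on chromosome 2 (27165233 to 27183200, plus strand). For Dbh, normalized counts were 6691 before birth (E18.5), 7962 (male) and 12454 (female) at P1, 12094 and 10435 at 2 weeks, and 8912 and 7130 at 12 weeks, males first. P1 female was the highest library and E18.5 the lowest, 1.86-fold apart, and the P1 libraries spanned most of that range. No age comparison of Dbh passed, and the log2 difference from P1 to 2 weeks was 0.17 ± 0.25 (SE, adjusted p = 0.681). Without P1 male it was -0.28, without 2-week male -0.01 and with libraries scaled to the chromaffin markers -0.05. Between P1 and 12 weeks it was -0.32 ± 0.25, and 0.14 without P1 female.

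The gap in Dbh between the P1 libraries moved with other medullary genes. All 9 chromaffin markers were higher in P1 female, by a median log2 difference of -0.48 (male minus female). Over the 16720 genes tested the median was -0.02, and 8754 were higher in P1 female. Other lists leaned the same way, with all 7 Schwann markers (median -0.77) and all 6 skeletal muscle markers (-0.89) higher in P1 female. Of 7 cortex markers, 6 were higher in P1 male. Chga, the chromogranin A gene, stood at 14233 normalized counts in the male pool against 35941 in the female pool. The part of these markers in the Dbh difference was not tested.

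Start regions of the RefSeq annotation (GRCm38.p6) were at hand for 5 of the 8 genes: Th, Ddc, Dbh, Gch1 and Slc18a2. The first sequence below shows the 250 bases before the Th start, chr7:142899996-142900245 (minus strand), with the full cAMP response element TGACGTCA in capitals. Its first base is 45 bases before the start. The second shows the 250 bases before the Dbh start, chr2:27165257-27165506 (plus strand), with capitals at the 3 matches to TAAT on either strand, the core read by homeodomain factors such as Phox2a. The third is a stretch of 30 bases at the Slc18a2 start, chr19:59260863-59260892 (plus strand), again with TGACGTCA in capitals.
Th: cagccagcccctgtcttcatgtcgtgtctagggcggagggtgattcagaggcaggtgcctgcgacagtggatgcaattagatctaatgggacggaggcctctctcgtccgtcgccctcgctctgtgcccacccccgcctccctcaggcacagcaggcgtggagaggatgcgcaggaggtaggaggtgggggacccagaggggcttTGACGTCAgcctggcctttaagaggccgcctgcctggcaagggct
Dbh: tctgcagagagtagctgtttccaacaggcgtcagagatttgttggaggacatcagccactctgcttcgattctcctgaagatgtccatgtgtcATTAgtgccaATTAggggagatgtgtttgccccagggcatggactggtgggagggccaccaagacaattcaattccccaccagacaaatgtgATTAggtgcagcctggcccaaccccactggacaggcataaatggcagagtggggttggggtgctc
Slc18a2: agcgctgtccgTGACGTCAgagccggactg

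On either strand, TGACGTCA occurred in 1.79% of 32851 start windows of the same length (250 bases before to 50 after the start) and TAAT in 58.03%, so the second motif is common. Of the 5 genes with a window, TGACGTCA was found for Th and Slc18a2, and TAAT for Th, Ddc, Dbh and Slc18a2. CCAAT, present in 37.41% of windows, was found for Ddc, Dbh and Gch1. In Dbh it begins 150 bases before the start and shares letters with the TAAT match at 147. From 2 weeks to 12 weeks the log2 difference was -0.43 for Th and -0.99 for Slc18a2. Both were lower at 12 weeks without overlap between the ages, as were 35.3% of all genes tested. The difference between the 2 genes was not tested. A match describes the letters of the window and not a bound site.

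Ddc lies on chromosome 11 (11814101 to 11898144, minus strand). For Ddc, normalized counts were 1532 before birth (E18.5), 1171 (male) and 1353 (female) at P1, 1770 and 1576 at 2 weeks, and 1163 and 1004 at 12 weeks, males first. The 2-week libraries were highest, 2-week female within counting error of E18.5, and the 12-week libraries lay below both. Ddc fell by 0.63 ± 0.16 (SE) on the log2 scale from 2 weeks to 12 weeks, with an adjusted p of 0.0494 in limma, lower in 2 of 2 sexes. That call was at the threshold. It was lost in edgeR (adjusted p = 0.0517) and without P1 male (0.0612), P1 female (0.0623), 2-week male (0.371), 2-week female (0.223) or 12-week female (0.146). It was also lost with a pseudocount of 0.1 (0.0536), with no filter on low genes (0.151), without a trend in eBayes (0.123) and with chromaffin marker scaling (0.720).

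Kidney tubule cells also express Ddc. Summed over 6 proximal tubule markers, the kidney level in normalized counts was 7965 for P1 male, 2381 for P1 female, and 35.0 to 64.4 from 2 weeks on. Ddc had a P1 male over P1 female ratio of 0.865 (95% exact binomial interval 0.801 to 0.935). At 2 weeks and 12 weeks the defining markers of the tubule were at or near 0, with Slc34a1 at 0.00 to 1.76 normalized counts. The part of kidney RNA in the P1 values of Ddc was not tested.

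Pnmt, the adrenaline-forming enzyme, showed a large fall between 2 weeks and 12 weeks. Pnmt lies on chromosome 11 (98386450 to 98388181, plus strand). For Pnmt, normalized counts were 1954 before birth (E18.5), 2378 (male) and 2761 (female) at P1, 4123 and 3758 at 2 weeks, and 577 and 1206 at 12 weeks, males first. The order was 12-week male, 12-week female, E18.5, P1 male, P1 female, 2-week female and 2-week male from low to high, and each neighbouring pair differed beyond counting error. From 2 weeks to 12 weeks Pnmt fell by 2.24 ± 0.28 (SE) on the log2 scale, 4.71-fold (limma adjusted p = 0.00475, lower in 2 of 2 sexes). Both 12-week libraries were below both 2-week libraries, as for 35.3% of all genes tested. Relative to P1, 12-week Pnmt fell by 1.62 ± 0.28, 3.07-fold (adjusted p = 0.00486, 2 of 2 sexes).

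The higher level of Pnmt at 2 weeks than at P1 did not pass. Both 2-week libraries stood above both P1 libraries, as for 33.4% of all genes tested. From P1 to 2 weeks the log2 difference was 0.62 ± 0.28 (adjusted p = 0.175). It passed without 12-week male (adjusted p = 0.0116) and without 12-week female (0.0115). Over the alternatives, the fall from 2 weeks to 12 weeks lost its call with no filter on low genes (adjusted p = 0.104) and without 2-week male (0.0508). The fall from P1 to 12 weeks lost it with no filter (0.0643), without P1 male (0.0834) and without P1 female (0.0667).

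Set against the preceding enzymes in the same library, Pnmt was also lower at 12 weeks. The ratio of Pnmt to Dbh reads was 0.292 at E18.5, 0.299 and 0.222 at P1, 0.341 and 0.360 at 2 weeks, and 0.0648 and 0.169 at 12 weeks, males first. Both 12-week ratios were below every earlier one. The 95% exact binomial intervals were 0.0585 to 0.0716 in 12-week male and 0.158 to 0.181 in 12-week female, for counting error only. The ratio of Pnmt to Th reads was 0.549 and 0.577 at 2 weeks, but 0.116 and 0.224 at 12 weeks. With libraries scaled to equal levels of the chromaffin markers, Pnmt fell by 1.99 on the log2 scale from 2 weeks to 12 weeks (limma adjusted p = 7.9e-05).

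**Figure D2:**
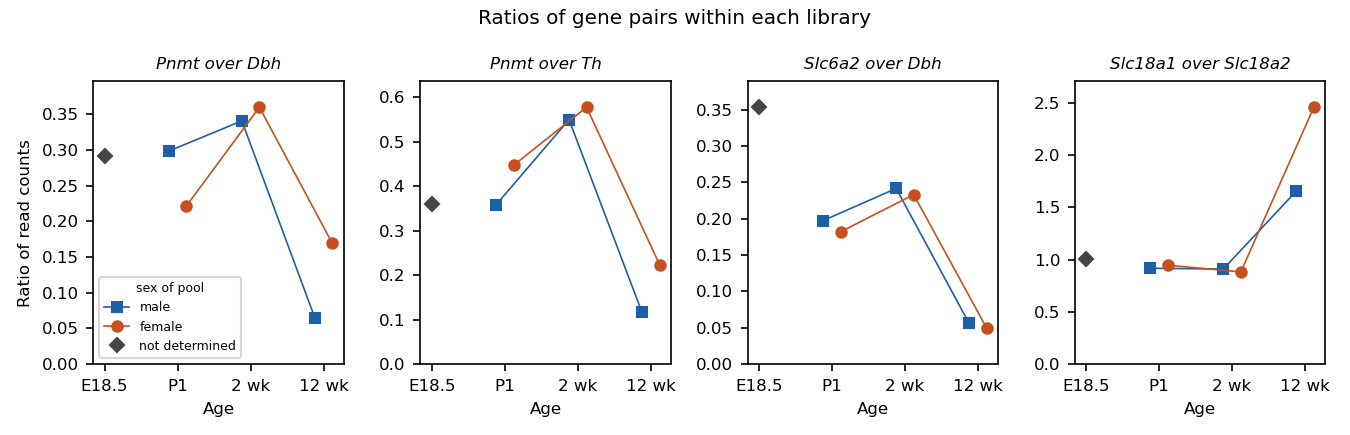
Ratio of read counts of gene pairs within each library (y axis, from 0) against age, 1 point per library, blue squares male, orange circles female, grey diamonds E18.5. Pnmt over Dbh and over Th, and Slc6a2 over Dbh, are lowest in the 12-week libraries, where Slc18a1 over Slc18a2 is highest.

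Gch1, at the entry of cofactor synthesis, went the other way. Gch1 lies on chromosome 14 (47153895 to 47189413, minus strand). For Gch1, normalized counts were 829 before birth (E18.5), 606 (male) and 697 (female) at P1, 736 and 911 at 2 weeks, and 1106 and 1119 at 12 weeks, males first. Every library of a later postnatal age stood above those of the age before. Gch1 rose by 0.78 ± 0.16 (SE) on the log2 scale from P1 to 12 weeks, 1.71-fold (limma adjusted p = 0.00904, higher in 2 of 2 sexes). The single steps did not pass, with 0.33 ± 0.16 to 2 weeks (adjusted p = 0.193) and 0.44 ± 0.16 from there (adjusted p = 0.104). The call was lost without P1 male (0.0628), without P1 female (0.0618) and with chromaffin marker scaling (0.172).

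The vesicular transporters parted at 12 weeks. Slc18a1 lies on chromosome 8 (69037711 to 69089235, minus strand). For Slc18a1, normalized counts were 1020 before birth (E18.5), 745 (male) and 767 (female) at P1, 1058 and 946 at 2 weeks, and 1218 and 1057 at 12 weeks, males first. Its P1 libraries were lowest and did not overlap with the rest. Slc18a1 rose by 0.58 ± 0.15 (SE) on the log2 scale from P1 to 12 weeks, 1.50-fold (limma adjusted p = 0.0225, 2 of 2 sexes). The call was lost with chromaffin marker scaling (0.334), without a trend in eBayes (0.0631), and without P1 male (0.107), P1 female (0.0570), 2-week male (0.0660), 2-week female (0.0651) or 12-week male (0.0907).

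Slc18a2 lies on chromosome 19 (59260896 to 59296012, plus strand). For Slc18a2, normalized counts were 1019 before birth (E18.5), 813 (male) and 811 (female) at P1, 1163 and 1072 at 2 weeks, and 735 and 430 at 12 weeks, males first. The 12-week libraries were lowest, but 12-week male was not apart from P1 female, its neighbour in the order of levels, beyond counting error. Slc18a2 fell by 0.99 ± 0.22 (SE) on the log2 scale from 2 weeks to 12 weeks, 1.98-fold (limma adjusted p = 0.0298, 2 of 2 sexes). The call was lost with no filter (0.159), without a trend in eBayes (0.0878), with chromaffin marker scaling (0.334), and without P1 male (0.0741), P1 female (0.0738), 2-week male (0.166), 2-week female (0.236) or 12-week female (0.0710). The antisense gene Gm29261 shares 99 bases, or 2.62%, of its exon length, and the authors' strand setting is not given in the sources used here.

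From P1 to 12 weeks the log2 difference of Slc18a2 was -0.53 ± 0.22 (adjusted p = 0.0942), with an adjusted p of 0.00626 without 12-week male and 0.0495 with equal totals. Read counts of Slc18a1 and Slc18a2 stood at a ratio of 0.882 to 0.946 in the 4 libraries of P1 and 2 weeks, and were nearly equal at E18.5 (1214 and 1213 reads). In 12-week male the ratio was 1.66 (95% interval 1.48 to 1.85) and in 12-week female 2.46 (2.18 to 2.78). Mast cells also carry Slc18a2. The summed level of 5 mast cell markers was 2064 and 2193 normalized counts in the P1 libraries, 778 and 708 at 2 weeks, and 243 and 299 at 12 weeks in males and females. By 2 weeks 3 of the 5 had fallen below P1 in limma, beside 10.5% of all genes tested. Slc18a2 was higher at 2 weeks than at P1 by 0.46 ± 0.22 (SE), which did not pass (limma adjusted p = 0.201). At 12 weeks 4 of the 5 had fallen below their 2-week level, beside 9.89% of all genes. The part of mast cell RNA in these differences of Slc18a2 was not tested.

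Slc6a2 showed the largest change of the 8 genes. Slc6a2 lies on chromosome 8 (92960079 to 93001667, plus strand). For Slc6a2, normalized counts were 2364 before birth (E18.5), 1572 (male) and 2267 (female) at P1, 2921 and 2432 at 2 weeks, and 498 and 352 at 12 weeks, males first. Both 12-week libraries were far below all others, and in the order of levels neither P1 female and E18.5 nor E18.5 and 2-week female were apart beyond counting error. From 2 weeks to 12 weeks Slc6a2 fell by 2.67 ± 0.25 (SE) on the log2 scale, 6.36-fold (limma adjusted p = 0.00206, lower in 2 of 2 sexes). Relative to P1, 12-week Slc6a2 fell by 2.17 ± 0.25, 4.50-fold (adjusted p = 0.00120, 2 of 2 sexes). The first call was lost under the test with no filter on low genes (adjusted p = 0.0972), and the second passed in all 16 alternatives.

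Markers of sympathetic neurons, which rely on this transporter, were among those that were lower with Slc6a2 at 12 weeks. Of 7 markers, 6 fell from 2 weeks to 12 weeks and 0 rose, where 9.89% of all genes tested fell and 5.40% rose. Their median log2 difference was -1.93, against -0.03 over all genes tested. Prph, which encodes the neuronal filament protein peripherin, had 803 and 655 normalized counts in 2-week male and female, and 72.7 and 7.92 at 12 weeks. It fell by 4.82 ± 0.69 (SE) on the log2 scale (limma adjusted p = 0.00731). Nefm, a neurofilament gene, fell by 3.50 ± 0.26 (adjusted p = 0.00118). Npy, which chromaffin cells also express, was the marker that did not pass, with 7097 and 7030 normalized counts at 2 weeks and 4607 and 4244 at 12 weeks.

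Other cell types also changed over this step. Of 7 Schwann cell markers 3 fell (median -1.69), of 6 adipocyte markers 3 fell (median -0.81), and of 7 cortex markers 0 passed in limma, 3 having an unadjusted p under 0.05 (median 0.68). Of 9 chromaffin markers 1 fell, Syt1 (-0.99 ± 0.17, adjusted p = 0.0126), where 9.89% of all genes fell, and the median was -0.21. The lists were not tested against each other. The part of neuronal, Schwann, adipocyte or cortex RNA in the fall of Slc6a2 was not tested. Over the 7 libraries Slc6a2 had Pearson's r of 0.985 with Nefl, 0.949 with Prph, 0.928 with Nefm, 0.909 with Elavl4, 0.887 with Stmn2 and 0.289 with Npy on the log2 scale. These points share their libraries and are given as a description.

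**Figure D3:**
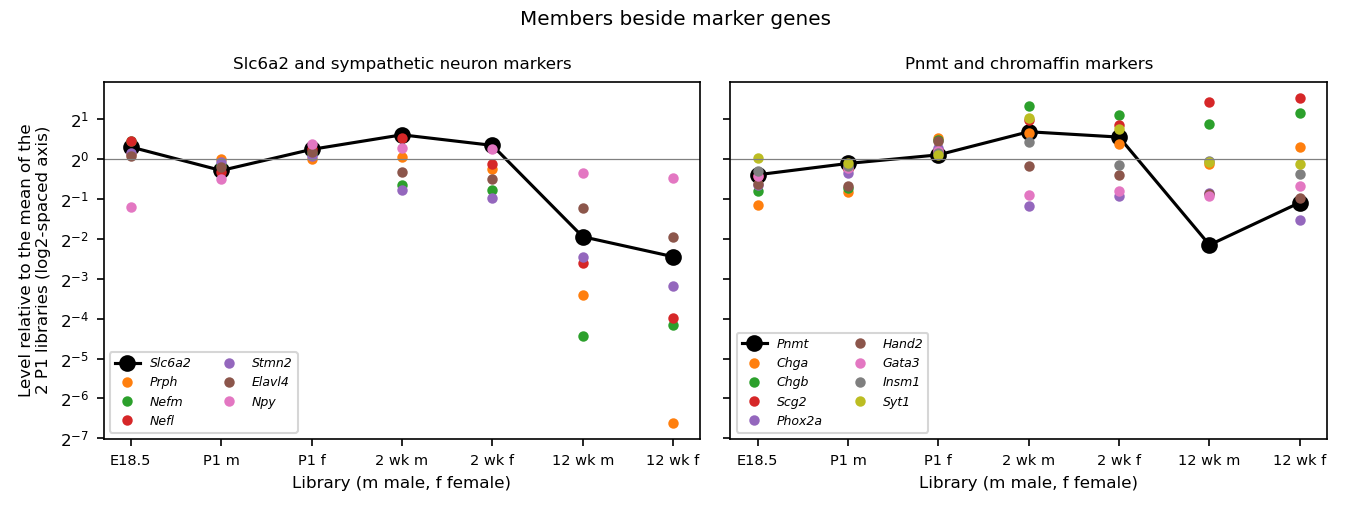
Level relative to the mean of the P1 libraries (y axis, log2-spaced) in each library, with Slc6a2 and sympathetic neuron markers on the left and Pnmt and chromaffin markers on the right. Slc6a2 is at 0.259 (male) and 0.183 (female) of its P1 level at 12 weeks, where the 6 neuron markers shown are below theirs. Pnmt at 0.225 in 12-week male lies below the chromaffin markers shown. In 12-week female Pnmt is at 0.469, above Phox2a (0.348) and below the other chromaffin markers shown.

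Counted over the age steps, the 8 genes did not behave as 1 block. From P1 to 2 weeks 0 of 8 passed, and 2 had an unadjusted p under 0.05 (Ddc and Slc18a1). edgeR also called 0. Of the 16720 genes, 16.4% passed in limma (5.89% higher, 10.5% lower) and 17.1% in edgeR. Both 2-week libraries stood above both P1 libraries for 6 of 8, Th and Dbh being the exceptions, and 0 of 8 showed the reverse, where 33.4% of all genes tested stood above and 34.5% below. The members' median log2 difference was 0.41, against 0.0026 over all genes. With chromaffin marker scaling the median of all genes moved to -0.22. Th then had -0.10 and Dbh -0.05, both above that median.

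From 2 weeks to 12 weeks 4 of 8 fell (Ddc, Pnmt, Slc18a2 and Slc6a2) and 0 rose, beside 9.89% of all genes that fell and 5.40% that rose, 15.3% together. edgeR called 3, without Ddc, and 14.6% of all genes. The members' median was -0.56, against -0.03 over all genes. Both 12-week libraries were below both 2-week libraries for 6 of 8 (35.3% of all genes) and above for Gch1 alone (30.7%). The count of 4 dropped to 2 without P1 male, P1 female, 2-week female or 12-week female, and to 1 without 2-week male. It was 2 when both P1 libraries were left out, with adjusted p = 0.0452 for Pnmt and 0.0296 for Slc6a2.

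From P1 to 12 weeks 2 of 8 rose (Gch1 and Slc18a1) and 2 fell (Pnmt and Slc6a2), where 17.6% of all genes rose and 23.5% fell, 41.2% in all. edgeR called 4, and 40.6% of all genes. Both 12-week libraries stood above both P1 libraries for 2 of 8 (34.5% of all genes) and below for 5 (37.8%). The median was -0.31, against -0.03 over all genes. Without P1 male or without P1 female the count was 1, Slc6a2. The 3 age comparisons share libraries and are not independent of each other.

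**Figure D4:**
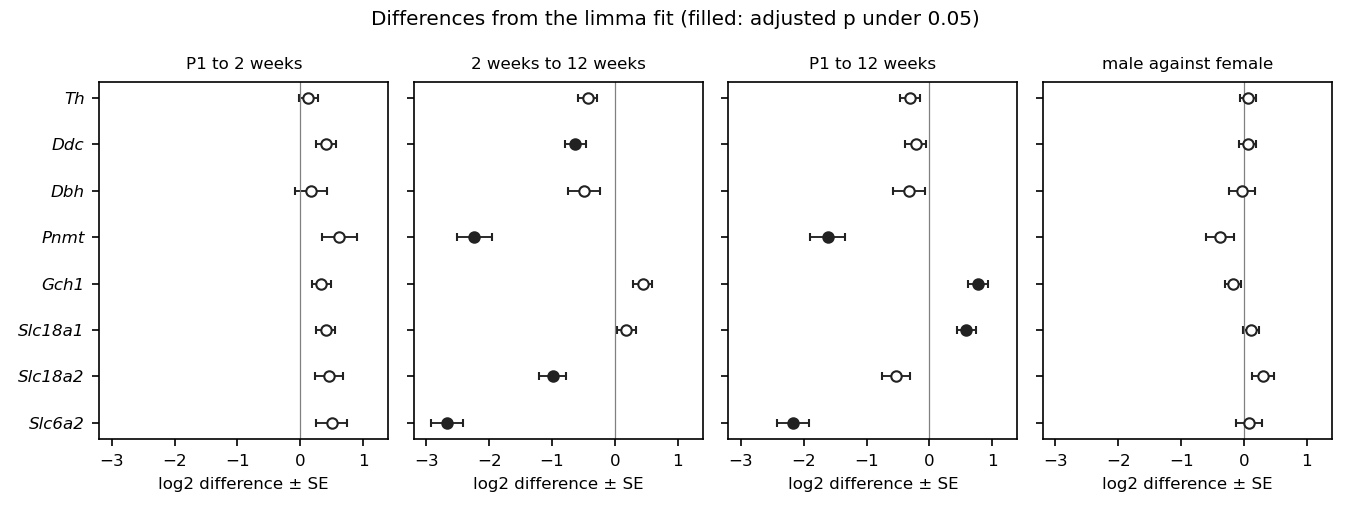
Log2 difference with its standard error (x axis) for the 8 genes in the 3 age comparisons (later minus earlier) and the comparison of the sexes (male minus female), from limma on the 6 postnatal libraries. Filled points passed an adjusted p of 0.05: 0, 4, 4 and 0 genes from left to right.

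Across birth the 8 genes went both ways. E18.5 had 1 library of unsexed embryos, so the ratios to P1 have no test. Th, Dbh and Pnmt were higher in both P1 libraries than at E18.5, and Ddc, Gch1, Slc18a1, Slc18a2 and Slc6a2 were lower in both. Thus 3 of 8 were higher in both and 5 lower in both, where 40.5% of all genes tested were higher in both and 34.1% lower in both. The higher count is near the background and the lower count is above it, and this split was not tested. None of the 8 was at least 2-fold apart the same way in both, which 5.63% of all genes were. Both comparisons share the E18.5 library.

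Pnmt stood at 1.22 times its E18.5 level in P1 male (95% interval 1.15 to 1.29) and 1.41 times in P1 female (1.33 to 1.50). Slc18a1 was at 0.731 (0.670 to 0.797) and 0.752 (0.684 to 0.826). Dbh was at 1.19 (1.16 to 1.23) and 1.86 (1.81 to 1.92). Slc6a2 was at 0.665 (0.627 to 0.705) in P1 male but 0.959 (0.905 to 1.02) in P1 female, which is within counting error of no change. Of the chromaffin markers, 7 of 9 were higher in both P1 libraries and 0 lower in both, and all 7 cortex markers were lower in both. The shares over all genes were 40.5% higher in both and 34.1% lower in both.

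Between the sexes, the largest difference among the 8 genes was in Pnmt at 12 weeks. The 12-week male library had 577 normalized counts (413 reads) and the female library 1206 (1066 reads), so Pnmt was 2.09-fold higher in the female library (95% interval 1.86 to 2.35). It was the single member at least 2-fold apart there, where 9.69% of all genes were apart in either direction and 4.40% were higher in the female library. At P1 and at 2 weeks 0 of 8 were 2-fold apart, against 7.35% and 5.16% of all genes. The P1 female library held Y-linked transcripts at 21.0% of the P1 male level, so the P1 ratios may not compare pure male and female pools. The male over female ratio of Pnmt was 0.861 (0.816 to 0.909) at P1 and 1.10 (1.05 to 1.14) at 2 weeks.

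The transporters leaned the opposite way at 12 weeks. Slc18a2 was 1.71-fold higher in 12-week male (95% interval 1.50 to 1.96), and Slc6a2 1.41-fold (1.21 to 1.65). Dbh was 1.25-fold higher in 12-week male (1.21 to 1.29), whereas Th had a ratio of 0.921 (0.882 to 0.962). Beside these, 6 of 7 sympathetic neuron markers were higher in 12-week male (median log2 difference 0.72), 4 of 9 chromaffin markers were higher in male and 5 in female (median -0.11), and 6 of 7 cortex markers were higher in 12-week female (median -0.68). Their part in the differences of the members was not tested, and pool and sex cannot be told apart.

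Over the 3 postnatal ages no member passed for sex. The P1 female library, which held Y-linked transcripts, was counted as female in these fits. In limma with age as a term 0 of 8 passed, 0 had an unadjusted p under 0.05, and edgeR called 0, where 0.00598% of all genes (1 gene) passed. Pnmt had a male minus female log2 difference of -0.38 ± 0.22 (SE, adjusted p = 0.999) and was below the female library at 2 of 3 ages. Slc18a2 had 0.30 ± 0.18 (adjusted p = 0.999). It was higher in males at 2 weeks and 12 weeks and within counting error at P1 (813 and 811 normalized counts). A limma fit of the 12-week sex difference against the mean of the earlier ones, the P1 pair included, was run after the values were seen. It had 1 residual degree of freedom before moderation, so its p-values rest also on the spread of other genes. Pnmt departed by -1.02 ± 0.29 (SE), with an unadjusted p of 0.00243 and an adjusted p of 0.0964, and 1.58% of all genes passed. The next was Slc18a2 with 0.71 ± 0.30 (adjusted p = 0.365).

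**Figure D5:**
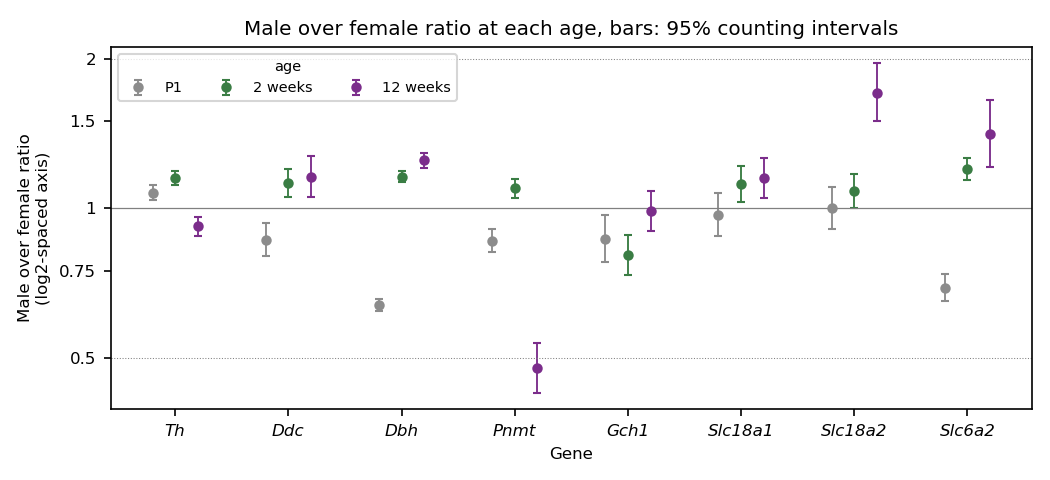
Male over female ratio of normalized counts (y axis, log2-spaced, dotted lines at 0.5 and 2) for the 8 genes at P1 (grey), 2 weeks (green) and 12 weeks (purple), with 95% exact binomial intervals that cover counting error only. Pnmt at 12 weeks, at 0.479, is the one point beyond a dotted line. The P1 female library held Y-linked transcripts.

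Other genes of catecholamine metabolism were taken as a list of 20, of which 19 passed the filter (the dopamine transporter Slc6a3 did not). From P1 to 2 weeks 3 rose and 0 fell, from 2 weeks to 12 weeks 1 rose and 2 fell, and from P1 to 12 weeks 4 rose and 6 fell. Over all genes tested 16.4%, 15.3% and 41.2% passed in these comparisons, so the total counts of the first pair of steps are near the background. By direction, 5.89%, 5.40% and 17.6% of all genes rose and 10.5%, 9.89% and 23.5% fell. The list's medians were 0.31, -0.04 and 0.38, against 0.0026, -0.03 and -0.03 over all genes. Between the sexes 0 of 19 passed in limma.

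Cyb561, which passes electrons into the vesicle for dopamine beta-hydroxylase, stood at 1382 and 1470 normalized counts at P1, 2999 and 2364 at 2 weeks, and 2327 and 3357 at 12 weeks, males first. It rose by 0.90 ± 0.22 (SE) on the log2 scale from P1 to 2 weeks (limma adjusted p = 0.0369) and by 0.97 ± 0.22 from P1 to 12 weeks, 1.96-fold (adjusted p = 0.0134). Cyb561 was thus higher at 12 weeks than at P1, where Pnmt and Slc6a2 were lower.

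In cofactor metabolism the members of the list went both ways from P1 to 12 weeks. Spr, which completes tetrahydrobiopterin synthesis, rose by 0.68 ± 0.16 (adjusted p = 0.0177), as Gch1 did. Gchfr, the feedback regulator of GTP cyclohydrolase, fell by 1.72 ± 0.44 (adjusted p = 0.0211) and was low throughout, with 16.0 to 78.4 normalized counts. At 2 weeks it had 16.0 in male and 41.5 in female, and the liver sum, given above, was also higher in 2-week female. The part of liver RNA in the fall of Gchfr was not tested.

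Among the organic cation transporters, which take up monoamines with low affinity, 2 low genes went opposite ways from P1 to 12 weeks. Slc22a3 had 18.8 to 19.6 normalized counts at P1 and 54.3 to 62.9 at 12 weeks, and rose by 1.56 ± 0.35 (SE, limma adjusted p = 0.0132). Slc22a2 had 28.7 to 88.4 at P1 and 2.80 to 4.53 at 12 weeks, and fell by 3.49 ± 0.68 (adjusted p = 0.00819). Kidney also expresses Slc22a2, and the part of its RNA, given above, in this fall was not tested.

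Among the 8 genes, profiles over the 7 libraries ran together in part. Pearson's r of log2 levels was 0.923 between Ddc and Slc18a2, 0.890 between Slc18a2 and Slc6a2, 0.889 between Th and Pnmt, and 0.860 between Pnmt and Slc6a2. Gch1 and Slc18a1 had r = 0.810 with each other, and Gch1 had -0.711 with Th and -0.731 with Slc6a2. Thus Gch1 and Slc18a1 formed a pair apart from most of the rest. All of these rest on the same 7 libraries.

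Over 12247 other genes (mean normalized count at least 100), those most like the members' mean profile were Brinp2 (r = 0.993), Akap5 (0.991), Itga6 (0.988), Adcy6 (0.987) and Ppfia1 (0.984). Pnmt and Slc6a2 vary most and weigh most in that mean. Most like Pnmt alone were Traf4 (r = 0.991), Nfyb (0.988), Col4a6 (0.986), Vegfc (0.982) and Sphk2 (0.982). Traf4 had 611 and 667 normalized counts at 2 weeks and 189 and 294 at 12 weeks in males and females. Looked up after the values were seen, the genes most like Slc6a2 were Ccne2 (r = 0.995), Mcm3 (0.994), Hirip3 (0.993), Rpa2 (0.990) and Brip1 (0.989). Ccne2, a cyclin gene of the entry into DNA replication, had 656 and 589 normalized counts at 2 weeks and 93.7 and 78.1 at 12 weeks.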

How the data were processed

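Total RNA of pooled adrenal glands was sequenced in 7 libraries. The authors deposited 1 table of counts normalized per library, a signal per gene symbol. Per the submitters' processing notes, CASAVA 1.8.2, HISAT2 2.1.0, HTSeq 0.9.1, DESeq2 2.11.40.6 and the build mm10 were used. Annotation and strand setting are not given in the sources used here. Every value was a whole multiple of 1 step per library (100% of values above 0, tolerance 0.001 reads), so reads were recovered by division.

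limma 3.58.1 (R 4.3.3; lmFit, eBayes with trend, two-sided) was fitted to log2(normalized count + 1), which understates changes of low genes, over 16720 genes with a mean of at least 10. Terms were age and sex over 6 libraries (2 residual degrees of freedom before moderation). P-values were Benjamini-Hochberg adjusted over all genes, with a threshold of 0.05. edgeR 4.0.16 (quasi-likelihood) on the recovered reads called 2857, 2440 and 6781 genes for the 3 age comparisons and 1 for sex. Intervals of ratios are 95% exact binomial and cover counting error only: no molecular identifiers mark the reads, so duplicates of 1 molecule may be counted apart. P-values of the fits with age and sex rest on how far the difference between male and female pools varied from age to age. That spread was moderated with the spread of other genes, so standard errors and p-values do not measure a gene's own spread alone. Scripts were tested on simulated data.

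The members and lists were chosen with earlier results of these data known. Named genes are the members, up to 4 of the pathway list per comparison that passed with the largest change or whose role needed it, markers beside a result, and the 5 genes most like the members' mean and most like Pnmt. The test of the 12-week sex difference, the list most like Slc6a2 and the fit without both P1 libraries were added after the data were seen. Some genes of the lists are counted in the totals but are not reported here by name.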

Additional observations from a re-analysis of the deposited data

How the results depend on the processing

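No paired analysis was possible because each group had 1 library and the labels give no replicate numbers, so sex was a term in the age comparisons and dropping it changed no count of called members by over 1.5 times. Of 520 values of single members under other settings, 460 stayed on their side of the threshold with the same sign, 36 lost it, 5 gained it and 19 changed sign. The 19 were all of differences that had not passed.

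Of the 8 genes, the count called from 2 weeks to 12 weeks was 0 with no filter on low genes, 2 without a trend in eBayes, 2 with chromaffin marker scaling and 2 without both P1 libraries, and 1 to 4 when single libraries were left out. From P1 to 12 weeks it was 2 with chromaffin marker scaling and 1 to 4 without single libraries. From P1 to 2 weeks it was 0 to 1 without single libraries, the 1 being Pnmt without either 12-week library. The cause of these changes was not tested.

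Signs changed as follows. With chromaffin marker scaling, Th (-0.0954) and Dbh (-0.0468) changed from P1 to 2 weeks, and Dbh (0.148) and Gch1 (0.00872) between the sexes. With equal totals Dbh had 0.0248 between the sexes, and without both P1 libraries 0.267. Without single libraries, Dbh ran from -0.282 to 0.630 from P1 to 2 weeks and from -0.777 to 0.135 from P1 to 12 weeks. Male minus female, Th ran from -0.00670 to 0.155, Ddc from -0.0204 to 0.190, Dbh from -0.216 to 0.267 and Slc6a2 from -0.132 to 0.382.

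Over all genes, the counts called ranged over the alternatives from 0 to 4461 (P1 to 2 weeks, 2737 as reported), 0 to 3159 (2 weeks to 12 weeks, 2557), 3207 to 7501 (P1 to 12 weeks, 6881) and 0 to 51 (sex, 1). Higher against lower calls were 645 to 2514 with equal totals from 2 weeks to 12 weeks (903 to 1654 as reported), with a median of all genes of -0.20. With chromaffin marker scaling they were 311 to 1706 from P1 to 2 weeks (985 to 1752 as reported), 785 to 962 from 2 weeks to 12 weeks, and 13 to 36 for sex (0 to 1), with medians of all genes of -0.22, 0.21 and 0.18. Counts of members 2-fold apart did not change under the 3 other scalings. Per exon length the ratio of Pnmt to Dbh ran from 0.143 in 12-week male to 0.796 in 2-week female. The depth allows ratios of about the width given, and 1 pool per group limits what can be said of animals.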
